A study of Mus musculus with 5 samples.

Results

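Pmp22, Mbp, Prx, Cnp, Mag and Mal are 6 genes whose protein products are built into the myelin sheath or hold it to the axon. They were picked by name as a set of myelin protein genes, with their levels in these cells already known, so all values given describe them and no test between cell types was made on them. All 6 had a row in the deposited counts, out of 17267 rows that name a mouse gene. The counts are unique molecular identifiers (UMIs), each of which marks 1 captured transcript, from single cells of the lumbar dorsal root ganglion (DRG), the cluster of sensory neuron cell bodies beside the spinal cord. All animals formed 1 group of untreated wild-type C57BL/6 mice, 3 males and 2 females aged 18 weeks, so the comparisons are between cell types. The 3352 cells came from 5 libraries, numbered 1 to 5 here and each taken as 1 mouse, and the deposited annotation divides them into satellite glia, endothelial cells and 12 kinds of neuron, 14 types in all.

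In peripheral nerve, a Schwann cell wraps a single stretch of a large axon in many layers of membrane, which are pressed together into compact myelin. Pmp22 (peripheral myelin protein 22) spans the compact membrane, and a changed dose of its gene causes inherited neuropathy in humans. Mbp (myelin basic protein) lies on the cytoplasmic face of the membrane and closes the compact layers, and Mal is a proteolipid of lipid rafts that takes part in membrane sorting. Cnp is an enzyme of the non-compact myelin channels, Mag (myelin-associated glycoprotein) is an adhesion molecule of the innermost layer facing the axon, and Prx (periaxin) is a scaffold protein of myelinating Schwann cells. Satellite glia, which surround the neuronal cell bodies in the ganglion, share their origin with Schwann cells but as a rule form no compact myelin. Myelinated A-fibre axons belong to the large and medium neurons, whereas the axons of C-fibre neurons are not myelinated. From this textbook division, NF_Calb1, NF_Pvalb, NF2_Ntrk2.Necab2 and PEP2_Htr3a.Sema5a were grouped as A-fibre types (557 cells) and the other 8 neuron types as C-fibre types (2490 cells). The assay counts RNA in cell bodies, and a dissociated neuron carries no length of its axon.

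In the genome build GRCm38, which is mm10, the RefSeq table placed Pmp22 on the plus strand of chromosome 11 (63128982 to 63159547) and Cnp on the same strand and chromosome (100574909 to 100591875). Prx lay on the plus strand of chromosome 7 (27499305 to 27520041), Mag on the minus strand of chromosome 7 (30899175 to 30914922) and Mal on the minus strand of chromosome 2 (127633226 to 127656695). Cnp overlaps Dnajc7 and Prx overlaps the antisense gene Gm15541, both on the opposite strand.

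Promoter windows from 250 bases before to 50 bases after a transcript start were in the RefSeq table for 5 of the 6 genes. The 250 bases before the start nearest the gene's 5′ end are shown for Pmp22, which was as high in neurons as in satellite glia, and for Prx, Cnp and Mag, whose windows held a searched motif. Capitals mark a motif match, and all sequences read 5′ to 3′ on the strand of the gene.
Pmp22, chr11:63128732-63128981, plus strand: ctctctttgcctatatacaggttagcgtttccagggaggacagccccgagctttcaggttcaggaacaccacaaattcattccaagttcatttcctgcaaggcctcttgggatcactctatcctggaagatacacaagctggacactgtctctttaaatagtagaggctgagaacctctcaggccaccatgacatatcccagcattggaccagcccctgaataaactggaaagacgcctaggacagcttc
Prx, chr7:27499074-27499323, plus strand: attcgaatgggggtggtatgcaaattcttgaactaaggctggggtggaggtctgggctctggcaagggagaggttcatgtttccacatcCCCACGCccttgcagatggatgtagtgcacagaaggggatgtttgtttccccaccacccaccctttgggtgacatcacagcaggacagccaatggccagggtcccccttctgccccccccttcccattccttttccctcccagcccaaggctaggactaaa
Cnp, chr11:100574689-100574938, plus strand: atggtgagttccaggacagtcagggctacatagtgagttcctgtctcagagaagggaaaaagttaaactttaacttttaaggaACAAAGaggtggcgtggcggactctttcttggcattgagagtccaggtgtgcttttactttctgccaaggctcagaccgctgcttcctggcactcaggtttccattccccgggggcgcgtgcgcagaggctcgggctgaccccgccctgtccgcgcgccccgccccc
Mag, chr7:30914923-30915172, minus strand: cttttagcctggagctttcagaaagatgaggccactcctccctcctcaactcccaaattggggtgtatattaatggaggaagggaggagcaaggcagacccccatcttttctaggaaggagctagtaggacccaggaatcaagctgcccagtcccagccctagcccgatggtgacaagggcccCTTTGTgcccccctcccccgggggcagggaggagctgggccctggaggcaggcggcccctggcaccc

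The motifs searched on both strands were GCGTGGG, a core that EGR factors such as the myelin regulator Egr2 can bind, and ACAAAG and AACAAT, which SOX factors can bind. The letters GCGTGGG or their reverse complement were in 5.04% of all 32851 windows of the same length, ACAAAG in 18.7% and AACAAT in 10.7%. In the Prx window GCGTGGG was read on the other strand, starting 161 bases before the start. The Cnp window held ACAAAG starting 167 bases before the start, and GCGTGGG starting 19 bases after it, outside the stretch shown. In the Mag window ACAAAG was read on the other strand, starting 67 bases before the start shown. None of the 4 Pmp22 windows and the single Mal window held any of the 3 motifs. A match describes letters and not a bound site.

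The libraries held between 13050375 and 88886919 UMIs, with 164 to 1370 cells and a median of 52499.5 to 72840 UMIs per cell. Satellite glia (249 cells, 19 to 80 per library) had a median of 17729 UMIs per cell and the 3047 neurons one of 62779. UMIs were therefore summed per type and library and expressed as CPM (counts scaled to 1000000 UMIs), a level relative to the RNA of the same cells. Levels are compared between types for 1 gene and not between genes. The 7 satellite glial markers fixed for this check summed to 78091 to 102085 CPM over the libraries in satellite glia and to 716 to 1360 CPM in pooled neurons. Apoe made up most of the sum, at 78916 CPM. The mean levels of Apoe, Fabp7, Kcnj10, Ttyh1 and Cdh19 were higher in satellite glia than in pooled neurons and endothelial cells, so by these the type carried its label. Glul was higher in endothelial cells (1052 against 539 CPM), and S100b was at 707 CPM in pooled neurons against 867 CPM in satellite glia. The 6 markers of myelinating Schwann cells (Egr2, Ncmap, Prx, Pmp2, Gldn and Cldn19) summed to 75.6 to 129 CPM in satellite glia and to 4.45 to 6.20 CPM in neurons. In satellite glia most of this was Egr2, at 59.6 CPM and with a UMI in 57.8% of the cells. Ncmap followed at 16.6 CPM with a UMI in 6.83%. Of the 6 markers of oligodendrocytes, the myelinating cells of the brain and spinal cord, only Cldn11 had a row. Neuronal markers summed to 277 to 800 CPM in satellite glia and to 11660 to 12512 CPM in neurons. In satellite glia the fibroblast markers summed to 177 to 303 CPM, the macrophage markers to 12.6 to 130 CPM, the endothelial markers to 5.54 to 149 CPM and those of non-myelinating and immature Schwann cells to 621 to 797 CPM. In pooled neurons these 4 lists summed to 0.873 to 3.93, 1.35 to 4.03, 43.1 to 60.7 and 562 to 849 CPM. The endothelial sum of neurons was mostly Egfl7, at 51.8 CPM. In the last list the genes went opposite ways. Ngfr, L1cam and Scn7a were at 212, 188 and 179 CPM in neurons and at 11.6, 13.9 and 3.59 CPM in satellite glia. Sox2, Gfap and Ncam1 were at 0.357, 0.0473 and 115 CPM in neurons and at 180, 35.6 and 454 CPM in satellite glia. The endothelial markers summed to 8916 to 12343 CPM in endothelial cells. The part of these other cells in the members' levels was not tested.

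The members fell into distinct patterns over the 14 types. Mbp, Cnp and Mal were many times higher in satellite glia than in the pooled neurons, Pmp22 was at the same level in both, and Prx and Mag were rare everywhere. On the scale of log2(CPM + 1), the difference between satellite glia and pooled neurons was 4.43 ± 0.31 for Mbp, 3.98 ± 0.32 for Mal, 2.67 ± 0.25 for Cnp, 2.54 ± 1.10 for Prx and 2.17 ± 0.43 for Mag (mean ± SD, n = 5 libraries). For Pmp22 it was -0.04 ± 0.09. Thus 5 of 6 members were higher in satellite glia with no overlap between the 5 libraries of satellite glia and the 5 of neurons. The same held for 17.3% of the 16248 genes with at least 10 UMIs, and 42.0% were lower in satellite glia without overlap. Satellite glia held 4571598 UMIs and pooled neurons 219040556. A rare gene can therefore have no UMI in any satellite glial library and be called lower through depth alone. Since the members were picked as myelin genes with these levels known, the count of 5 describes the choice. Without the 28 satellite glial cells that held a UMI of the Schwann cell genes Ncmap, Gldn or Cldn19, which are described further on, the count was 3, with Prx and Mag overlapping. Fewer transcripts of a gene per cell and more RNA of other genes cannot be told apart in CPM. In mean UMIs per cell, where neurons have more RNA, Pmp22 was lower in satellite glia than in neurons by 2.08 on the log2 scale, while the other 5 remained higher.

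**Figure D1:**
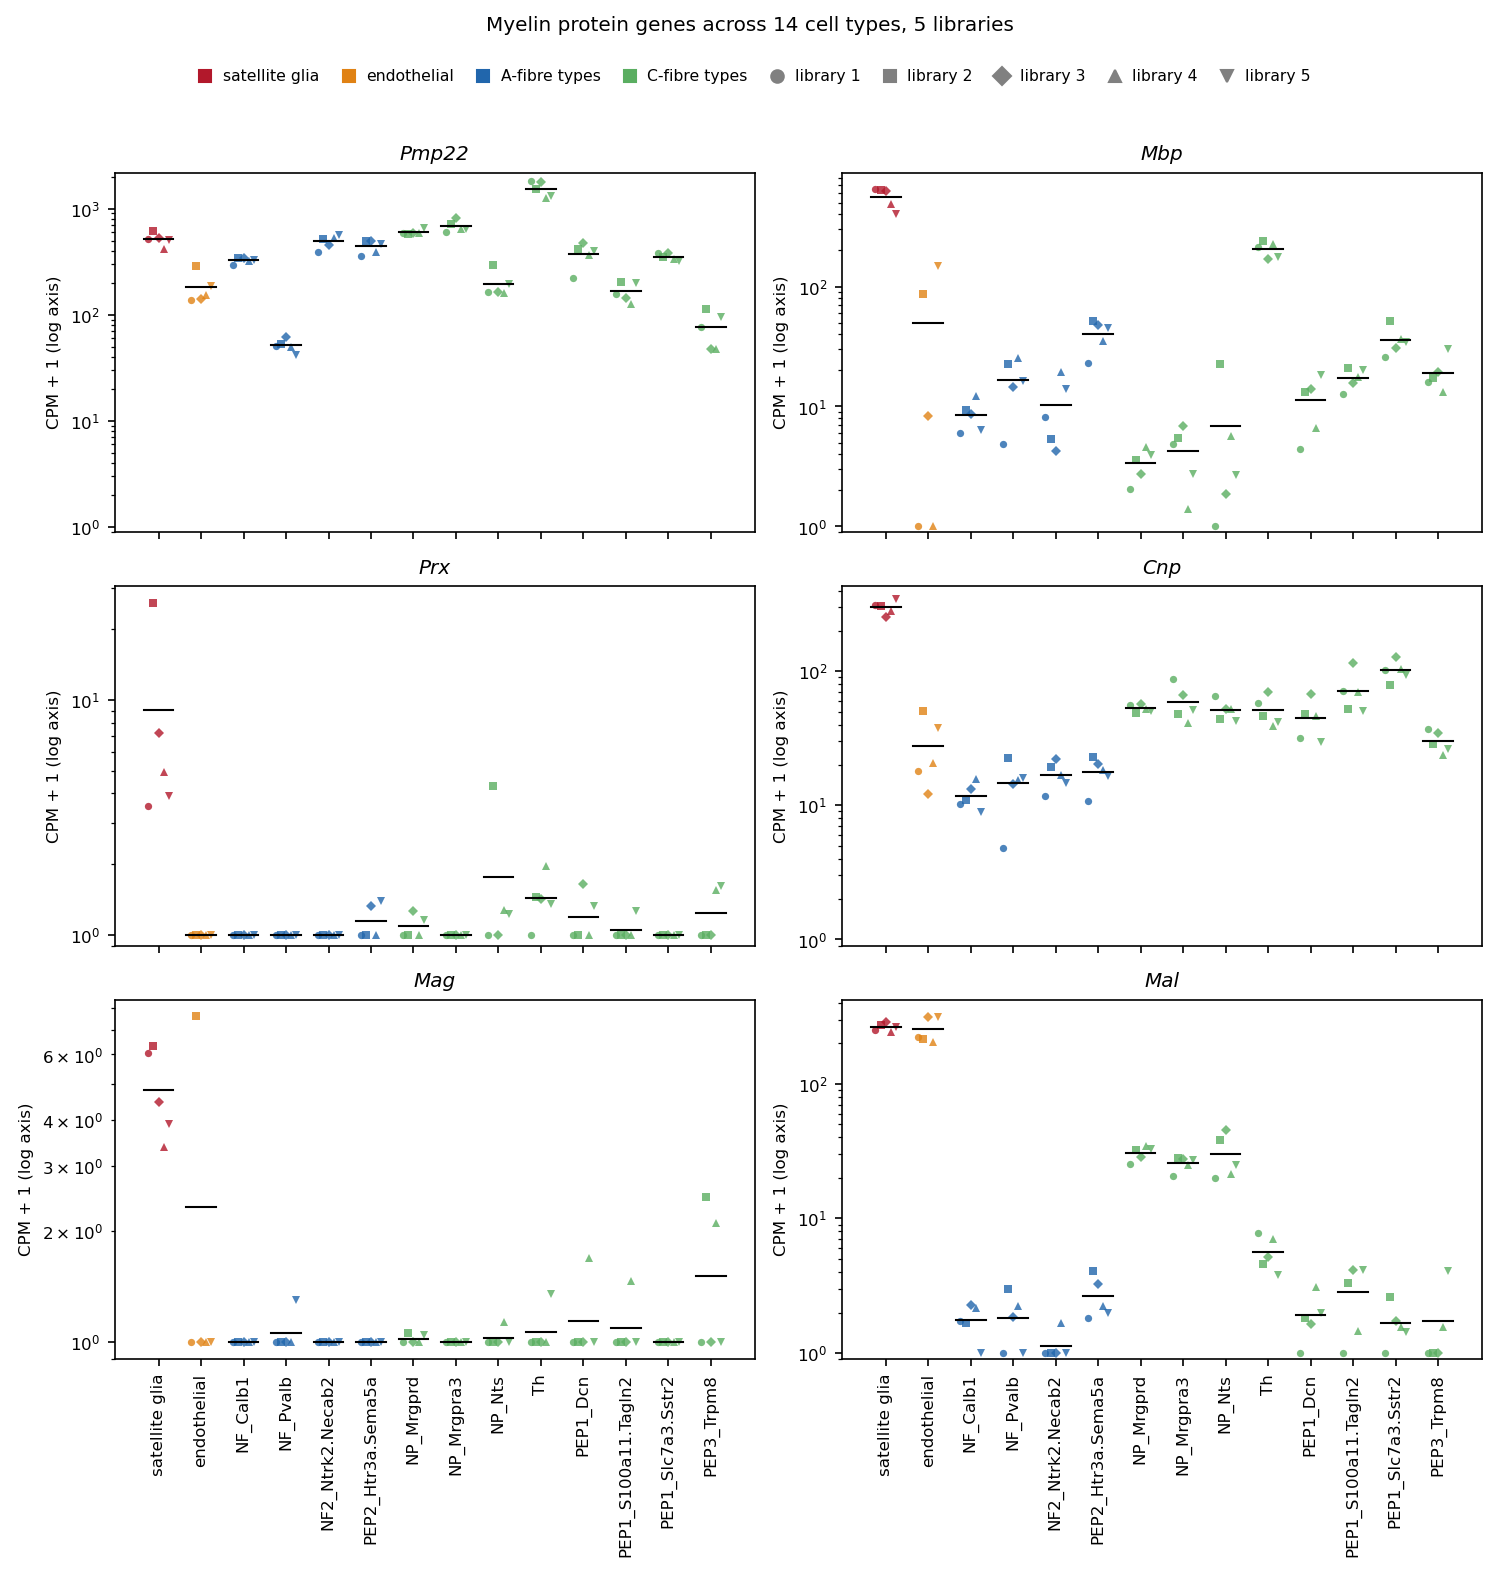
CPM + 1 (log axis) of each gene in the 14 cell types, with 1 point per library, shaped by library and coloured by class of cell, and a black line at the mean of 5 libraries. Mbp and Cnp are highest in satellite glia, Mal in satellite glia and endothelial cells alike, Pmp22 in Th neurons, and Prx and Mag lie near 0 in most types.

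**Figure D2:**
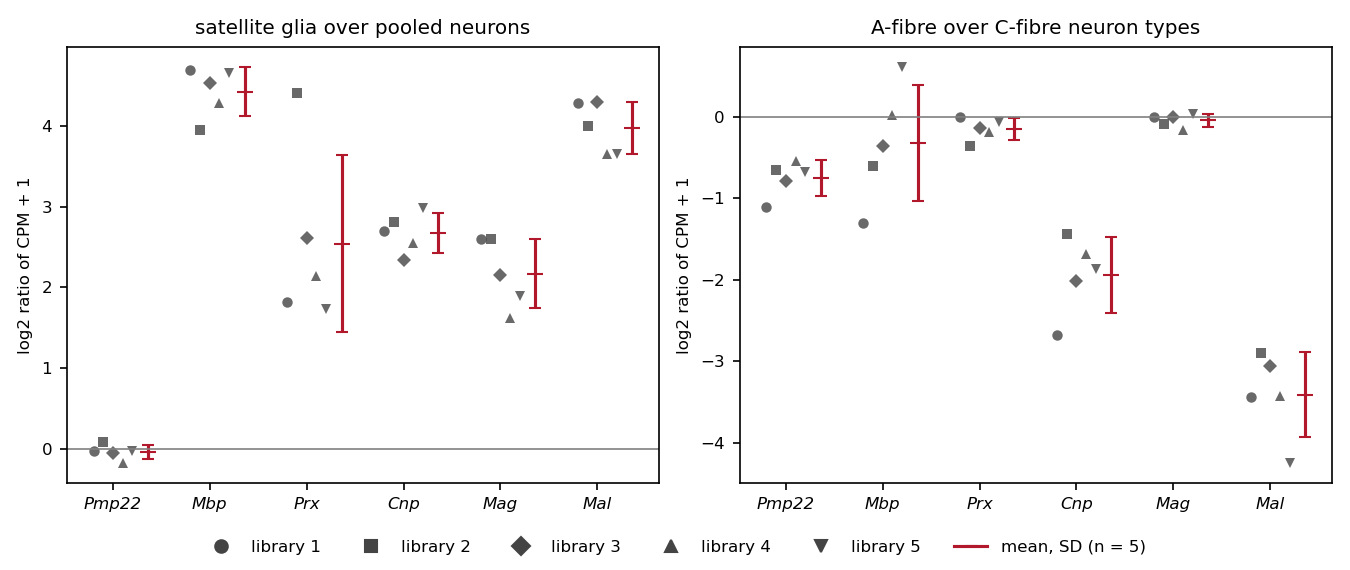
Log2 ratio of CPM + 1 for each gene, in satellite glia over pooled neurons (left) and in A-fibre over C-fibre neuron types (right), with 1 grey point per library and the mean and SD of 5 libraries in red. All libraries lie above 0 on the left except those of Pmp22, which lie between -0.17 and 0.09.

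Pmp22 was expressed across the neurons and was highest in Th neurons, the C-fibre type that senses light touch and carries tyrosine hydroxylase. Its level in Th neurons was 1806, 1531, 1767, 1247 and 1303 CPM in libraries 1 to 5. All 5 values were above those of every other type. NP_Mrgpra3 followed at 684 ± 84.7 CPM and NP_Mrgprd at 599.5 ± 32.5 CPM (SD, n = 5), and their libraries overlapped with each other. Satellite glia came only in the fourth place, with 517, 615, 524, 411 and 508 CPM in libraries 1 to 5, and overlapped with NP_Mrgprd above and NF2_Ntrk2.Necab2 below. The lowest levels were in NF_Pvalb neurons, the proprioceptors, at 50.7 ± 7.34 CPM, and in PEP3_Trpm8 neurons, the cold-sensing type, at 75.0 ± 28.9 CPM. These ranges overlapped with each other. The mean of Th neurons was 30.2 times that of NF_Pvalb. Of all 116557 Pmp22 UMIs, 97.8% were in neurons and 2.01% in satellite glia. This is close to the split of all genes, with 219040556 of 224553219 UMIs in neurons and 4571598 in satellite glia.

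When every cell was thinned to 5000 UMIs, so that depth no longer differed, a Pmp22 UMI was present in 99.6% of Th neurons, 93.8% of NP_Mrgpra3, 92.4% of NF2_Ntrk2.Necab2, 86.2% of satellite glia, 24.1% of PEP3_Trpm8 and 17.95% of NF_Pvalb. The Pmp22 counts were set against Apoe, which is most abundant in satellite glia. With UMIs summed over the libraries, pooled neurons held 547 times as many Pmp22 UMIs per Apoe UMI as satellite glia, and Th neurons 1246 times as many. Within single libraries the values were 288 to 883 in pooled neurons and 651 to 15095.5 in Th neurons. Among the 27 Th neurons without any Apoe UMI, the Pmp22 level was 1278 CPM, against 1502 CPM in the Th neurons with Apoe. Over the 14 types, the genes with a pattern closest to Pmp22 were Lrrc8d (r = 0.88), Slc35a1 (r = 0.78) and Grhl3 (r = 0.76). These are Pearson correlations of the log2 mean levels, with cells of the same libraries behind all points. Here and for the other members, the genes named are the highest of 11124 compared over 14 points, so their r values are a description only.

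Mbp was highest in satellite glia and was found in addition in Th neurons. The gene lies on the plus strand of chromosome 18 (82475091 to 82585637) and also gives golli transcripts from an upstream start, which counts per gene do not separate from those of classical Mbp. Satellite glia had 643, 636, 628, 489 and 398.5 CPM in libraries 1 to 5, and every satellite glial cell held at least 1 Mbp UMI, with a median of 8. Th neurons had 213, 238, 168, 226 and 175 CPM. The lowest satellite glial library was above the highest Th library, and the lowest Th library was above all libraries of the other types. Endothelial cells had 0, 86.0, 7.38, 0 and 148 CPM, from 9 of 56 cells. Among the remaining neurons, PEP2_Htr3a.Sema5a (39.4 ± 11.5 CPM) and PEP1_Slc7a3.Sstr2 (34.8 ± 9.62 CPM) were highest and overlapped, and NP_Mrgprd was lowest at 2.39 ± 1.01 CPM (SD, n = 5). Th neurons were 7.61% of the neurons and held 56.1% of the neuronal Mbp UMIs.

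The Mbp UMIs of Th neurons were spread over the cells but unevenly. An Mbp UMI was present in 221 of 232 Th neurons, the median was 6.5 UMIs and the maximum 125, and the top 10% of the cells held 44.6% of the UMIs. All 27 Th neurons without an Apoe UMI held Mbp, at 181 CPM, against 211 CPM in the Th neurons with Apoe. The 6 markers of myelinating Schwann cells summed to 2.43 to 5.88 CPM in Th neurons. Most of this was Ncmap, at 4.09 CPM and with a UMI in 19.8% of Th neurons, and Prx was at 0.434 CPM. Pmp2 and Gldn were at 0 in Th neurons, but Pmp2 had only 4 UMIs in all cells. Per Apoe UMI, Th neurons held 156 times as many Mbp UMIs as satellite glia, and per Fabp7 UMI 187 times as many. These values, and those of the other types that follow, are from UMIs summed over the libraries. Within single libraries the value per Apoe UMI was 88.8 to 1431 in Th neurons. In the other 11 neuron types the value per Apoe UMI ran from 1.31 in NP_Mrgpra3 and 3.32 in NP_Mrgprd to 39.3 in NF2_Ntrk2.Necab2 and 45.5 in PEP1_Slc7a3.Sstr2, with 25.9 in NF_Pvalb, 23.3 in PEP1_Dcn and 20.6 in PEP2_Htr3a.Sema5a. In the 16 NF_Pvalb neurons without an Apoe UMI Mbp was at 17.2 CPM, against 16.9 CPM in those with Apoe. With each cell thinned to 5000 UMIs, 48.7% of Th neurons and 87.8% of satellite glia had an Mbp UMI. The share was 19.0% in PEP2_Htr3a.Sema5a, 16.7% in PEP1_Slc7a3.Sstr2, 9.53% in endothelial cells and 1.16% to 8.84% in the other neuron types. What part of these low shares comes from free RNA was not tested. The median depths before thinning were 56281 UMIs in Th neurons and 16889 in endothelial cells, and without thinning the shares were 95.3% and 16.1%. The genes with the pattern closest to Mbp over the 14 types were Nhlrc2 (r = 0.85), Snx5 (r = 0.84) and Lhcgr (r = 0.82).

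Cnp was highest in satellite glia, with 310, 306, 252, 282 and 346.5 CPM in libraries 1 to 5, all above every neuron library. Neurons held 88.1% of its 11182 UMIs. They were 3047 of the 3352 cells and held 219040556 of the 224553219 UMIs of all genes. PEP1_Slc7a3.Sstr2 neurons, a peptidergic C-fibre type, were the highest neurons in all 5 libraries, at 102, 77.7, 127, 103 and 92.2 CPM. The other C-fibre types lay between 29.1 CPM in PEP3_Trpm8 and 70.6 CPM in PEP1_S100a11.Tagln2, and the 4 A-fibre types between 10.8 CPM in NF_Calb1 and 16.9 CPM in PEP2_Htr3a.Sema5a. Neighbours in this order overlapped, apart from satellite glia and PEP1_Slc7a3.Sstr2, and from PEP3_Trpm8 and PEP2_Htr3a.Sema5a. The lowest PEP3_Trpm8 library was at 22.7 CPM and the highest PEP2_Htr3a.Sema5a library at 22.1 CPM. Endothelial cells, at 26.9 ± 15.9 CPM, lay between these types and overlapped with both. After thinning, 68.9% of satellite glia and 37.0% of PEP1_Slc7a3.Sstr2 neurons had a Cnp UMI. Endothelial cells had 11.3%, more than each of the A-fibre types, whose shares were 4.85% to 8.30%. The patterns closest to that of Cnp were those of Lamp1 (r = 0.91), Nsmce1 (r = 0.89) and Stard13 (r = 0.89).

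Mal was as high in endothelial cells as in satellite glia. Satellite glia had 249.6, 271, 286, 242 and 263 CPM and endothelial cells 223, 215, 310.2, 204 and 314 CPM in libraries 1 to 5, so both overlapped. After thinning, 70.4% of satellite glia and 63.7% of the 56 endothelial cells had a Mal UMI. In neurons, Mal was restricted largely to the 3 non-peptidergic types, at 29.9 ± 3.70 CPM in NP_Mrgprd, 29.0 ± 11.2 CPM in NP_Nts and 24.8 ± 3.17 CPM in NP_Mrgpra3 (SD, n = 5). These types were 46.1% of the neurons and held 96.1% of the neuronal Mal UMIs. Their libraries overlapped with one another and lay above those of Th neurons (4.67 ± 1.68 CPM) and of the other 8 neuron types, whose means were 0.132 to 1.82 CPM. After thinning, the share of cells with a Mal UMI was 14.2% in NP_Mrgprd and at most 2.40% in the neuron types outside the non-peptidergic class. In the 55 NP_Mrgprd neurons without an Apoe UMI Mal was at 28.1 CPM, against 31.7 CPM in those with Apoe. Over the 14 types Tec (r = 0.96), Slc12a4 (r = 0.94) and Ctso (r = 0.93) were closest to Mal.

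**Figure D3:**
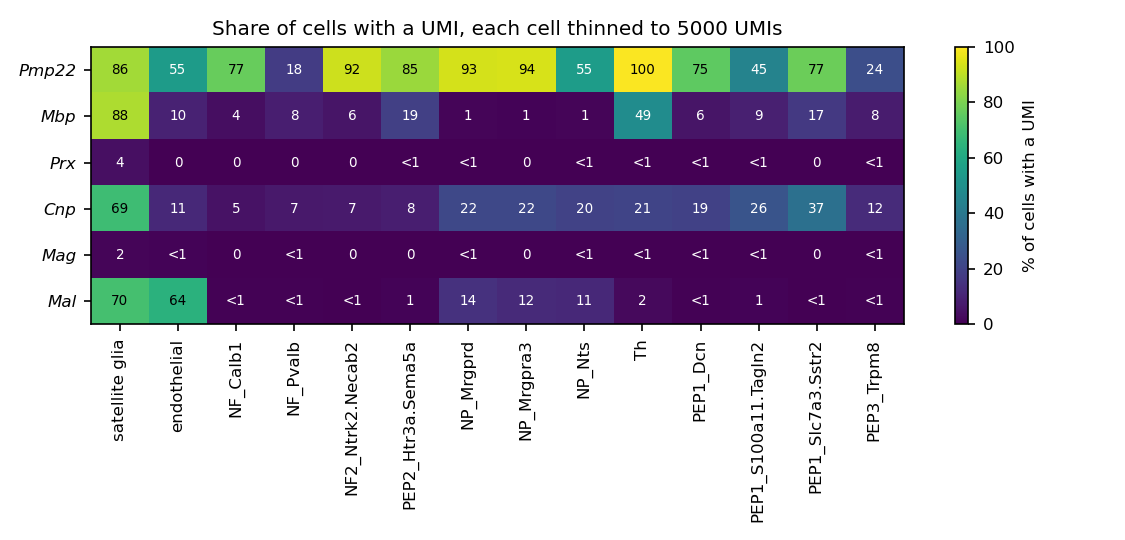
Percent of cells with at least 1 UMI of each gene (rows) in each of the 14 types (columns) after every cell was thinned to 5000 UMIs, with the percent written in each field. Mbp stands out in satellite glia (88%) and Th neurons (49%), Mal in satellite glia (70%) and endothelial cells (64%), and Pmp22 in most types.

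Prx and Mag had few UMIs and were found in few cells. Prx had 79 UMIs in all, of which 44 were in 23 satellite glial cells, 35 in 24 neurons and 0 in the 56 endothelial cells, which allows a share of up to 5.36% of cells with a UMI. In satellite glia it was at 2.52, 24.9, 6.24, 3.96 and 2.89 CPM in libraries 1 to 5, so library 2 stood far above the rest. Without library 2 the log2 difference from neurons was 2.08. Mag had 30 UMIs, of which 17 were in 8 satellite glial cells, 11 in as many neurons and 2 in 1 endothelial cell. Its level in satellite glia was 5.04, 5.34, 3.47, 2.38 and 2.89 CPM. The share of satellite glial cells with a UMI was 9.24% for Prx (exact 95% interval 5.95 to 13.5%) and 3.21% for Mag (1.40 to 6.23%), intervals that cover counting error only. Library 2 held 12 of the 23 cells with Prx, and without it the share was 5.61% (11 of 196 cells, 2.83 to 9.82%). In neurons the shares were 0.788% and 0.361%, at the higher depth of neurons. Over the types, the nearest patterns were those of Reln, P2ry12 and Gfap for Prx (r = 0.97 to 0.99) and of Ppp1r1b, Layn and Srpx for Mag (r = 0.9896 to 0.9951), and with so few UMIs these values rest mainly on satellite glia.

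After these values were seen, the satellite glia were divided by a UMI of Ncmap, Gldn or Cldn19, 3 of the fixed markers of myelinating Schwann cells that are not members. The 28 cells with such a UMI, of which libraries 1 to 5 held 3, 8, 13, 3 and 1, contained 70.5% of the satellite glial Prx UMIs and 88.2% of those of Mag. They held 32.6% of the Mbp UMIs, 25.3% of those of Pmp22, 18.1% of those of Cnp and 15.2% of those of Mal. The Mbp level was 1423 ± 382 CPM in these 28 cells and 435 ± 52.9 CPM in the other 221, and for Pmp22 it was 988 ± 316 against 444 ± 36.7 CPM (SD, n = 5). For Mbp, Pmp22, Cnp and Prx, the libraries of both groups did not overlap, although library 5 rests on 1 of the 28 cells. Over the 16245 genes with at least 10 UMIs other than Ncmap, Gldn and Cldn19, 0.683% were higher in the 28 cells without overlap and 2.04% were lower. Apoe was lower in the 28 cells, at 55023 ± 23945 against 81670 ± 7659 CPM, and Fabp7 was at 4525 ± 2616 against 8302 ± 1577 CPM, with overlap in each. The median depth was 18699 UMIs in the 28 cells and 17511 in the others. The 221 cells without these 3 markers still all held Mbp and Pmp22. Egr2, another of the fixed Schwann cell markers, did not follow the split. It was at 52.1 ± 22.6 CPM in the 28 cells and 60.7 ± 17.4 CPM in the others, with overlap. An Egr2 UMI was present in 16 of the 28 cells and in 128 of the 221.

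**Figure D4:**
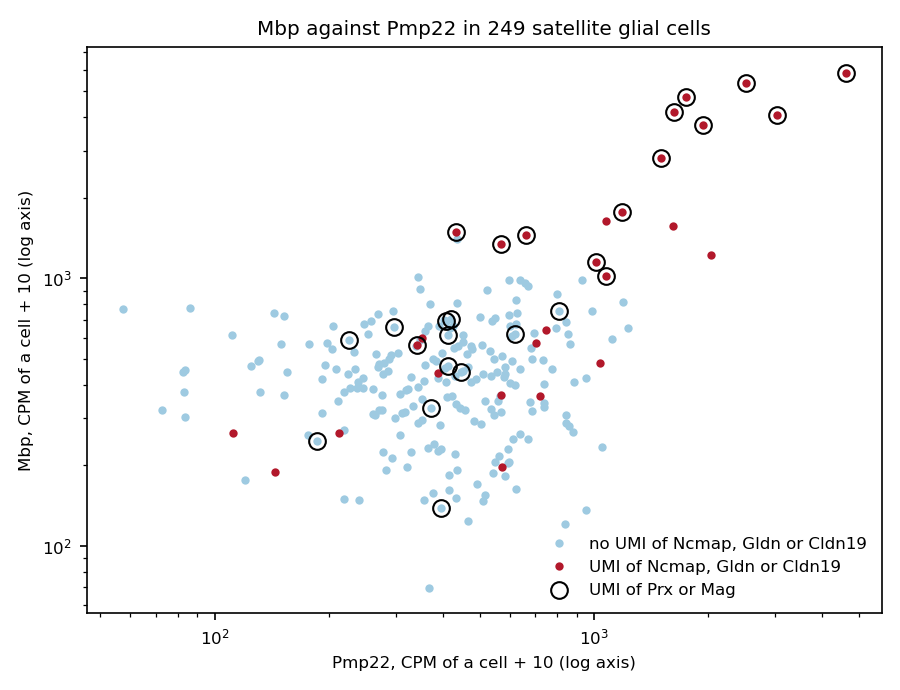
Mbp against Pmp22 in the 249 satellite glial cells, each axis in CPM of a cell + 10 (log axes), with cells holding a UMI of Ncmap, Gldn or Cldn19 in red, other cells in light blue and cells with a UMI of Prx or Mag circled. The cells highest in both genes lie among the 28 red cells.

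The cells of the top 10% by each gene held 34.9% of the satellite glial UMIs of Mbp, 29.0% of Pmp22, 28.4% of Cnp and 22.8% of Mal, compared with 16.9% for Apoe. For Prx and Mag this share has no content, since fewer cells held a UMI than the 25 cells of the top 10%. Over the 249 cells, the genes closest to a member by Spearman correlation of CPM included Bag5 and Ednrb for Mbp (rho = 0.28 and 0.26), Pou3f1 and Mpp6 for Prx (0.41 and 0.36), Rps18 and Arpc1b for Pmp22 (0.34 and 0.33), Rps18 and Gatm for Cnp (0.47 and 0.44), Ogn, Plekha1 and Pou3f1 for Mag (0.31, 0.29 and 0.28) and Tmem65 and Ube2s for Mal (0.25 and 0.23). These correlations are weak although they were among the highest of 6213 genes compared. The cells share libraries and depth, and the values are given as a description.

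Neurons of A-fibre types were then compared with those of C-fibre types, since myelinated axons belong to the former. Pmp22, Cnp and Mal were lower in the A-fibre types in all 5 libraries without overlap, and Mbp, Prx and Mag overlapped. Pmp22 was at 346 ± 41.1 CPM in A-fibre and 583 ± 61.5 CPM in C-fibre types, Cnp at 14.1 ± 3.47 and 55.9 ± 7.29 CPM, and Mal at 1.06 ± 0.612 and 20.3 ± 2.93 CPM (SD, n = 5). The log2 differences were -0.75 ± 0.22, -1.94 ± 0.47 and -3.41 ± 0.52, in this order. These pooled values do not hold for each type. For Cnp, the mean of every C-fibre type lay above that of every A-fibre type. Mal was at 0.676 to 1.82 CPM in the PEP1 and PEP3 types, against 0.132 to 1.67 CPM in the A-fibre types. The Pmp22 means of NF2_Ntrk2.Necab2 (493 CPM) and PEP2_Htr3a.Sema5a (439 CPM) lay above those of the PEP1, PEP3 and NP_Nts types. The highest of these was PEP1_Dcn at 374 CPM. Over all genes, 21.0% were lower in A-fibre types without overlap and 28.3% were higher. Mbp was at 21.3 ± 6.33 and 27.6 ± 10.7 CPM, a log2 difference of -0.33 ± 0.71. With Th neurons left out of the C-fibre types, a choice made after the values were seen, Mbp in the C-fibre types was 7.77 ± 2.52 CPM and the log2 difference became 1.33 ± 0.25, with A-fibre types higher in 5 of 5 libraries but the ranges overlapping. The 7 satellite glial markers summed to 2384 to 3924 CPM in the A-fibre types and to 102 to 1490 CPM in the C-fibre types, and their part in this comparison was not tested. One of them, S100b, was at 707 CPM in pooled neurons and 867 CPM in satellite glia, so the list is not specific to glia here. Leaving out Th neurons left Pmp22, Cnp and Mal lower in the A-fibre types without overlap. In mean UMIs per cell Pmp22 overlapped, and Cnp and Mal remained lower without overlap. Among neurons lacking Apoe, with 43 A-fibre cells in 4 libraries, Cnp was lower without overlap and Pmp22 and Mal overlapped.

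The levels of other genes of the myelin programme gave a frame for the members. Of 38 genes considered, 34 had a row and 32 at least 10 UMIs. In satellite glia compared with pooled neurons, 20 of these 32 were higher without overlap, 5 were lower and 7 overlapped, with a median log2 difference of 2.36, beside -0.32 over all 16248 genes, of which 17.3% were higher and 42.0% lower. Of the compact myelin genes, Pllp (16.0 against 1.49 CPM) and Ncmap (16.6 against 2.00 CPM) were higher in satellite glia and Cldn11 overlapped. Among regulators, Sox10, Pou3f1, Pou3f2, Egr2, Nab1, Nab2 and Tead1 were higher in satellite glia, with Sox10, the factor that specifies peripheral glia, at 136 against 0.192 CPM and Egr2, which drives myelination in Schwann cells, at 59.6 against 2.04 CPM. Yy1 overlapped. The receptor genes Erbb2 and Adgrg6 and the ligand gene Dhh were higher in satellite glia, and Nrg1, the axonal signal that controls myelin thickness, was lower at 2.07 against 13.4 CPM. The other 4 genes that were lower, Cadm3, Cntn2, Cntnap1 and Nfasc, encode adhesion proteins that axons place at nodes and along myelin. Cadm3, Nfasc and Cntnap1 were highest in NF_Calb1, Cntn2 in NF2_Ntrk2.Necab2 and Nrg1 in NF_Pvalb, all of them A-fibre types. Between A-fibre and C-fibre types, 14 of the 32 were higher in A-fibre types without overlap, among them these 5 genes, and 4 were lower, beside 28.3% and 21.0% of all genes.

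**Figure D5:**
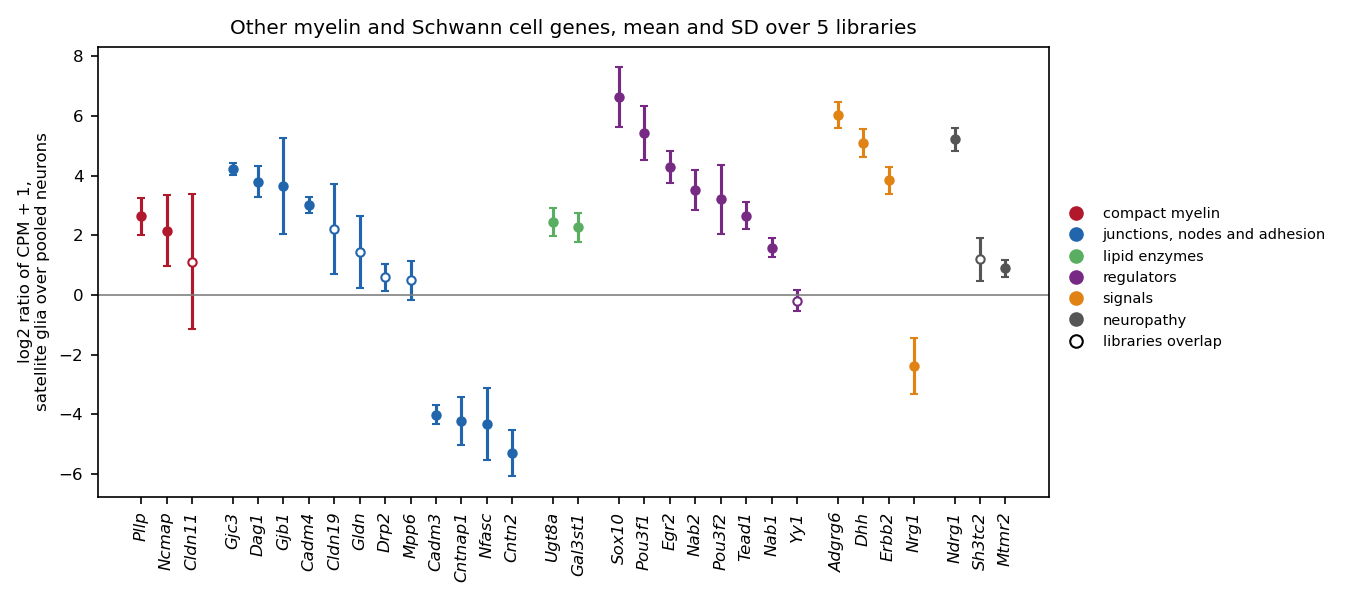
Log2 ratio of CPM + 1 in satellite glia over pooled neurons for 32 other myelin and Schwann cell genes, as mean and SD of 5 libraries, coloured by group, with open circles where the libraries overlapped. The axonal genes Cadm3, Cntnap1, Nfasc, Cntn2 and Nrg1 lie below 0 and Sox10 and Adgrg6 have the highest values.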

How the data were processed

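Single cells of lumbar DRGs were measured with the Chromium 3′ kit, after enzymatic dissociation and a 30% Percoll gradient. The authors counted UMIs with Cell Ranger on mm10 with the UCSC gene model, kept cells with 500 to 15000 genes and at most 10% mitochondrial UMIs, clustered them with Seurat and named the types. The deposited values are raw counts without normalization. In the deposited matrix 188 cells were above 10% mitochondrial UMIs by the rows used here and were kept. The 4 rows that name no mouse gene, with 143 of the UMIs, were left out. The library identifiers are named in no sample label, so libraries were not assigned to animals or sexes. A total of 7 barcodes occurred in more than 1 library. No doublet caller was run.

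UMIs were summed per type and library and scaled to CPM. Ratios used log2(CPM + 1), and background counts used genes with at least 10 UMIs. No overlap means that all 5 libraries of one group lay above all 5 of the other. The members and gene lists were chosen with earlier results of these data known, and the cell types were defined on the same counts, so no test was made. Named genes were the members, a list of 38 myelin genes and, for each member, the 3 genes most alike over types (mean of at least 10 CPM in a type) and over satellite glial cells (a UMI in at least 20% of the cells). Some genes of these lists are not reported here, and sums and counts leave them out. Thinned shares are expected values for 5000 UMIs per cell. Intervals are exact Clopper-Pearson at 95%, the limit for a count of 0 is 3 counts, and both cover counting error only. Python 3.11.15, numpy, scipy, pandas and matplotlib were used, with TMM factors from edgeR 4.0.16 in R 4.3.3 as an alternative scaling. The ratio and the overlap rule were tested on simulated data. The alternatives were TMM, mean single-cell CPM, UMIs per cell, another pseudocount, other selections of cells and leaving out each library.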

Additional observations from a re-analysis of the deposited data

Results flagged for a closer look

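In 5 of the 67 groups of 5 libraries examined, 1 library lay apart from the others by a gap that exceeded Dixon's 95% critical value for 5 values (0.71 of the range), where chance alone gives about 1 in 20. Library 2 was the highest in 4 of them. Prx in satellite glia was at 24.9 CPM in library 2 and at 2.52 to 6.24 CPM in the others. In NP_Nts neurons, library 2 had 3.32 CPM of Prx, 21.8 CPM of Mbp and 292 CPM of Pmp22, against highest values of 0.276, 4.70 and 193 CPM in the other libraries. Over all libraries, Prx in NP_Nts neurons had 11 UMIs in 5 cells, with 7 of them in 1 cell. Mbp had 97 UMIs in 38 of these neurons, with 33 of them in 1 cell. A single cell can thus carry much of the Prx or Mbp value of a library here. Library 5 had 657 CPM of Pmp22 in NP_Mrgprd neurons, against 577.5 to 593 CPM in the others.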

How the results depend on the processing

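No paired analysis was possible because the samples form 1 group, so no replicate numbers are shared between groups, and no result comes from a test that could take a block. The log2 differences between cell types were taken within each library. In the comparison of satellite glia with neurons, Prx and Mag were reversed without the top 10% of satellite glial cells (-0.18 and -0.054), which the setting itself fixes, since all satellite glial cells with their UMIs are among the 25 removed. In this setting Pmp22 was at -0.33, Mbp at 4.03 and Cnp at 2.30. The count of members higher without overlap was then 3, as it was without the cells holding Ncmap, Gldn or Cldn19, where Pmp22 was at -0.24, Mbp at 4.08, Prx at 1.10 and Mag at 0.52. In mean UMIs per cell the log2 differences were -2.08 for Pmp22, 2.43 for Mbp, 0.65 for Cnp, 2.63 for Mag and 2.00 for Mal. With neurons lacking Apoe they were 0.13 for Pmp22, 3.86 for Mbp and 5.14 for Mal, and without Th neurons 0.22 for Pmp22 and 5.56 for Mbp. Pmp22 was at 0.14 with TMM scaling and 0.10 with the mean of single cells, so its sign depended on the setting. A pseudocount of 0.1 gave 4.63 for Prx and 4.81 for Mag.

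In A-fibre against C-fibre types, leaving out Th neurons gave -0.45 for Pmp22 and 1.33 for Mbp. With neurons lacking Apoe, of which 43 were A-fibre and 4 libraries could be used, the values were -1.08 for Mbp, -2.78 for Cnp, -0.15 for Mag and -2.54 for Mal. A pseudocount of 0.1 gave -0.81 for Prx, -0.32 for Mag and -4.32 for Mal, mean UMIs per cell -0.64, -0.26 and -4.08 for these genes, and the mean of single cells -2.80 for Mal. Without library 1, 4 members were lower in A-fibre types in place of 3, with Prx added, in mean UMIs per cell 2 were, and with neurons lacking Apoe 1 was.

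Shares of satellite glia with a UMI at 10000 UMIs were 97.4% for Pmp22, 98.2% for Mbp, 86.7% for Cnp and 89.2% for Mal, and without thinning 100%, 100%, 93.6% and 96.8%, with 9.24% for Prx. In neurons they were 85.9% for Pmp22, 15.4% for Mbp, 34.4% for Cnp and 12.1% for Mal at 10000 UMIs, and without thinning 94.4%, 38.8%, 82.2% and 40.3%, with 0.788% for Prx and 0.361% for Mag. Leaving out 1 library at a time gave 8.44% to 11.03% for the neuronal share of Mbp and 31.8% to 36.4% for the share of satellite glial Mbp UMIs in the top 10% of cells. The settings on Th neurons and on Ncmap, Gldn or Cldn19 were chosen after seeing the data. The causes of these shifts were not tested. Prx and Mag are limited by 79 and 30 UMIs.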
